A study of Mus musculus with 4 samples.

Results

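The Hist1 cluster is the larger of the mouse loci for replication-dependent histones. Its CpG methylation was read from whole-genome bisulfite sequencing (WGBS) of embryonic brain, in which unmethylated cytosines read as T, so that the percentage of unconverted reads at a CpG is its methylation level. The members were the genes of the GENCODE vM21 annotation on chromosome 13 whose symbol starts with Hist1h, 56 of 51229 autosomal genes. Each member was measured over its gene body plus 1 kb on each side (its gene window) and over its coding exon, and the space between the genes was measured as well. A CpG was counted where each of the 4 libraries had 5 reads or more. These were 2011 CpGs in the gene windows and 11590 between the windows of the cluster, of 14907672 such autosomal CpGs in all.

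There were 4 libraries, each from the brain of 1 male embryo at embryonic day E11.5. All embryos were from the 129S6.cg Tet1<tm1Koh> line, in which a Tet1 insertion allele that abolishes the full-length transcript was backcrossed to 129S6. All had Tet1 HET dams on custom diets, and both diets contained the antibiotic succinyl sulfathiazole. Tet1 encodes a dioxygenase that oxidises 5-methylcytosine, the first step of active demethylation. The groups were Tet1 knockout on 30 ppm folic acid (KO30), wild type on 30 ppm (WT30), knockout on 3 ppm (KO3) and wild type on 3 ppm (WT3), where 30 ppm is the excess diet and 3 ppm the control diet. Each group had 1 library, so values carry no SD and differences no replicate check, and every p-value from reads compares libraries, not conditions. The pregnancy numbers in the sample titles differ, so no library pair came from littermates. Under the same embryo numbers, the study's list for another bisulfite assay records a neural tube defect (NTD) in the KO30 and KO3 embryos and a normal phenotype in the WT30 and WT3 embryos. Genotype, phenotype and litter therefore cannot be told apart, and neither can diet and litter. Bisulfite does not separate 5-methylcytosine from 5-hydroxymethylcytosine.

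Replication-dependent histone genes are transcribed in S phase to package newly made DNA. They are short and have no introns in the coding part, and their mRNA ends in a stem-loop in place of a poly(A) tail. Hist1 holds many nearly identical copies of the core histone genes H2A, H2B, H3 and H4, and it also holds the linker histone H1 genes. H2A and H2B genes often stand head to head and share a promoter. Most members serve dividing somatic cells, such as the neural progenitors of the embryonic brain. A few are germline genes: Hist1h1t encodes the testis linker histone H1t, and Hist1h2aa and Hist1h2ba encode the testis forms of H2A and H2B.

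The members stood in 4 subclusters and 1 outlying site on GRCm38. The first subcluster, chr13:21715763-21837530, held 19 members from Hist1h2bl to Hist1h2br. The second, chr13:22035164-22043676, held 5 members from Hist1h2ah to Hist1h2bj. The third, chr13:23531050-23764406, held 29 members from Hist1h4h to Hist1h1a. The fourth, chr13:23933773-23934851, held only the divergent pair Hist1h2ba and Hist1h2aa. Hist1h2al lay alone at chr13:51202727-51203065, 27268 kb after the last gene of the cluster, and is annotated as a processed pseudogene. By kind, 51 members were somatic genes, 3 were germline genes and 2 were pseudogenes, Hist1h2al and Hist1h2aj.

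Sequences are shown for 4 members that span the range of levels found. They are a typical somatic gene, the germline gene of intermediate level, a germline gene of high level and the outlying pseudogene. The first 3 are RefSeq promoters of GRCm38.p6, from 250 bases before to 50 bases after the gene start, and the last is the first 300 bases of the gene body. All are written 5′ to 3′ on the strand of the gene, with each CpG in capitals.
Hist1h4d, chr13:23581318-23581617, plus strand: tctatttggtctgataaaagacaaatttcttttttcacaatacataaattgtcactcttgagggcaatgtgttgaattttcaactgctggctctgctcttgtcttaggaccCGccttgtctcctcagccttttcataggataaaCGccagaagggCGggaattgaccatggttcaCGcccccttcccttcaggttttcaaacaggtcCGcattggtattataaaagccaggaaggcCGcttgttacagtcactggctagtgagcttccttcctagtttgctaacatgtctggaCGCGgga
Hist1h1t, chr13:23695561-23695860, plus strand: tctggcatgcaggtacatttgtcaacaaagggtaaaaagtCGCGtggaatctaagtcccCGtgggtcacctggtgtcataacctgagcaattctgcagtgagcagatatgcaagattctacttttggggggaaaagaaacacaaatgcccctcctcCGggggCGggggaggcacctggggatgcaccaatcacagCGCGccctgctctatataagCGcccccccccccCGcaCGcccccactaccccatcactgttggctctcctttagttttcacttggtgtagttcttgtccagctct
Hist1h2aa, chr13:23934187-23934486, plus strand: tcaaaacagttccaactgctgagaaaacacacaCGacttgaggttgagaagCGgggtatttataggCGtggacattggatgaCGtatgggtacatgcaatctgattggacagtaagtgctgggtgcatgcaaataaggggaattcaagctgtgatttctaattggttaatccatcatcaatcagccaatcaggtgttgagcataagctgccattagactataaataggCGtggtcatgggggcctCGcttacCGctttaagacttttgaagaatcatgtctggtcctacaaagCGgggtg
Hist1h2al, chr13:51202766-51203065, minus strand: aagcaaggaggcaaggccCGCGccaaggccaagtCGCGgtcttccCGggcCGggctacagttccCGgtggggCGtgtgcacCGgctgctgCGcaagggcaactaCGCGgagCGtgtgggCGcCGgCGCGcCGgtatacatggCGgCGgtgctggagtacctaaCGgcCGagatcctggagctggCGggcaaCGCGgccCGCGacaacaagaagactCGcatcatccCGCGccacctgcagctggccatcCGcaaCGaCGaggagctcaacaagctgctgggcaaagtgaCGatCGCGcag
The first 3 hold 8, 10 and 8 CpGs in 300 bases, and the stretch of Hist1h2al holds 36.

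Of the 56 members, 50 had a RefSeq promoter. Promoters of the 47 somatic members held a median of 11 CpGs (range 3 to 27), against 7 over all 32851 promoters of the same length. CCAAT, on either strand, stood in 39 of the 47 somatic promoters (82.98%) and in 37.4% of all promoters. TATAAA stood in 29 of 47 (61.7%) and in 13.6% of all. TTTGCAT, 7 letters of the octamer motif known from H2B promoters, stood in 10 of 47 (21.3%) and in 4.63% of all. Matches of the 3 motifs were counted separately and could share bases. CCAAT was present in all 11 H2A, all 13 H2B, all 7 H3 and all 5 H1 somatic promoters, and in 3 of 11 H4 promoters. All 3 germline promoters also held CCAAT. Promoters of head-to-head pairs overlap, so their matches are not independent.

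The libraries had a mean of 13.2 reads per listed autosomal CpG in KO30, 14.3 in WT30, 21.2 in KO3 and 16.2 in WT3. Reads at mitochondrial CpGs, which serve as the background of incomplete conversion, were 0.914% to 0.938% methylated. As a check of the tissue label, promoters of 6 neural progenitor genes had a median level of 1.49% to 1.82% over the libraries, and those of 5 genes of other tissues 88.0% to 90%, although promoter methylation does not measure expression. One of the latter, the muscle regulator Myod1, was called higher in KO3 (39.1% against 26.6% over its window, adjusted p = 6.82e-06 by Fisher's exact test on reads), and at 30 ppm it was at 45.8% against 36.1%, a difference of 9.70 points (adjusted p = 0.0133) short of the 10-point minimum.

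Copies of a histone class are nearly identical in sequence, and few CpGs of their coding exons were measured. Somatic H2A coding exons of the common length, 390 bases, were identical at a median of 98.2% of positions (11 genes, 55 pairs), H2B at 97.9%, H3 at 97.8% and H4 at 95.1%. H2A, H2B and H4 each had 1 pair with identical coding sequence. Of 1995 CpGs in somatic coding exons, 464 (23.3%) were measured, against 57 of 76 (75.0%) in germline coding exons. Mean coverage of the measured somatic coding CpGs was 8.16 to 14.4 reads, below the 14.7 to 24.9 reads between the gene windows. Hist1h2bq, Hist1h2ao, Hist1h4n, Hist1h2ap and Hist1h2br had too few measured CpGs to test, and in each of them all 100-base stretches of the coding exon recurred within 100 kb of the cluster or in it after C-to-T conversion. Hist1h4m, with the same full recurrence, was tested on 5 CpGs outside its coding exon. The coding exons of Hist1h2ag and Hist1h2ad also recurred in full, yet 4 and 8 of their CpGs were measured. Over the whole window, 19.7% of stretches recurred in Hist1h2ag and 23.6% in Hist1h2ad, against 81.1% to 100% in the untested members. Values of the core histone genes are uncertain to that degree, while the coding exons of Hist1h1b, Hist1h1a, Hist1h1t, Hist1h2aa and Hist1h2al held no recurring stretch (0%). Only the cluster and 100 kb on each side of it were searched. Recurrence elsewhere in the genome, such as in other histone loci, was not examined. Exons with little recurrence were also sparsely measured in places. The coding exon of Hist1h1c, with 15.2% of its stretches recurring, had 0 of 47 CpGs measured, that of Hist1h1e, with 13.1%, had 5 of 49, and that of Hist1h2al had 3 of 39. The part of recurring sequence in the missing CpGs was not tested.

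The coding exons of the somatic Hist1 genes were almost free of methylation in every library. Over their 464 measured CpGs the level was 1.69% in KO30 (95% Wilson interval 1.33% to 2.15%), 1.68% in WT30 (1.33% to 2.14%), 1.36% in KO3 (1.11% to 1.67%) and 1.84% in WT3 (1.49% to 2.26%). Intervals cover counting error only, and a read is counted at each CpG it covers. All 4 levels were within 1 point of the mitochondrial background. KO minus WT was 0.0055 points at 30 ppm (interval -0.58 to 0.59) and -0.47 points at 3 ppm (-0.97 to -0.0093). Of 38 somatic coding exons with at least 3 measured CpGs, 37 lay below 10% in all 4 libraries. The exception was Hist1h2bc, an H2B gene, with 0% in KO30, 21.3% in WT30, 5.26% in KO3 and 7.32% in WT3 over 6 CpGs and 41 to 76 reads. Recurring stretches made up 97.3% of its coding exon.

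**Figure D1:**
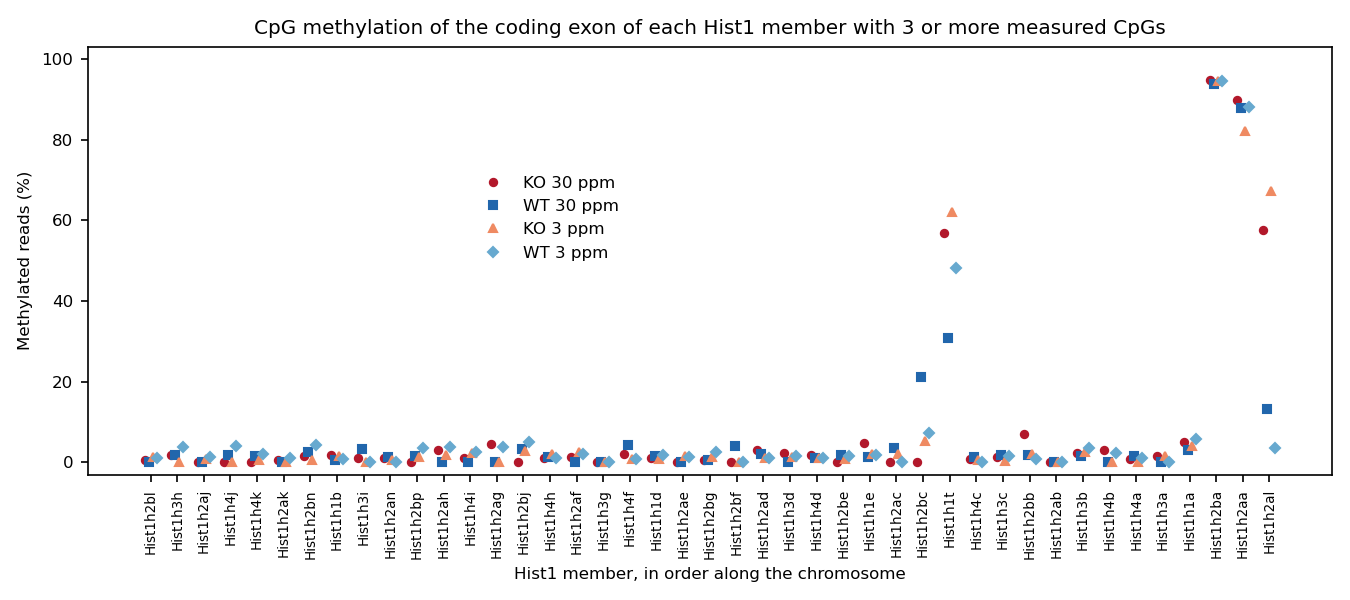
Methylated reads (%) over the coding exon of each Hist1 member with at least 3 measured CpGs (for pseudogenes, the gene), in order along the chromosome, with 1 point per library. Somatic genes lie near 0 in all libraries apart from Hist1h2bc in WT30 (21.3%), Hist1h2ba and Hist1h2aa lie above 80%, and Hist1h1t and Hist1h2al lie higher in both KO libraries than in both WT libraries.

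The 5 histone classes were alike in this. Somatic H1 coding exons were 1.78% to 3.03% methylated over the libraries, H2A 0.91% to 1.22%, H2B 1.54% to 2.51%, H3 0.96% to 1.63% and H4 0.91% to 1.72%. Among gene bodies with 5 or more measured CpGs, the lowest H2A and H3 members were Hist1h2ab and Hist1h3g, both with no methylated read in any library (0%) over 5 CpGs. The lowest H2B member was Hist1h2bl at a mean of 0.81% over the 4 libraries, the lowest H4 member Hist1h4a at 1.02% and the lowest H1 member Hist1h1b at 1.18%. The highest H3 and H4 members were still low, Hist1h3d at 5.13% and Hist1h4j at 2.39%. The highest of the other classes were the germline genes, Hist1h2aa at 87.0%, Hist1h2ba at 94.4% and Hist1h1t at 58.0%.

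The 5 somatic H1 genes, whose products bind linker DNA between nucleosomes, were as low as the core genes with 1 exception of annotation. Gene body means were 1.18% in Hist1h1b, 1.70% in Hist1h1c, 3.21% in Hist1h1e and 4.79% in Hist1h1a, against 34.1% in Hist1h1d. The annotated body of Hist1h1d spans 7425 bases, and its coding exon was at 1.12%, 1.67%, 0.90% and 1.81% in KO30, WT30, KO3 and WT3. No coding CpG of Hist1h1c met the read minimum.

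Promoters showed the same contrast. Over 42 somatic promoters with at least 3 measured CpGs, the median level was 0.65% to 1.06% over the libraries, and the highest single promoter level was 7.48%. The promoter of Hist1h2aa, printed above, was at 88.9% in KO30, 93.0% in WT30, 82.6% in KO3 and 87.7% in WT3. That of Hist1h2ba, which faces it, was at 86.7%, 98.7%, 83.9% and 91.0% in the same order. Both lie on 7 or 8 CpGs, and each was lower in the KO than in the WT library of its diet. These promoters overlap and share CpGs, so they are not independent. The promoter of Hist1h1t was at 65.4%, 50.0%, 61.0% and 48.7% on 3 CpGs and 26 to 59 reads, higher in both KO libraries.

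Methylation rose steeply with distance from the somatic coding exons. Within 250 bp on either side the level was 0.93% to 2.50% in every library. In the bin centred 625 bp upstream it was 19.9% to 21.5%, at 875 bp 25.4% to 30.5% and at 1375 bp 75.6% to 78.8%. Downstream it was 11.1% to 15.04% at 625 bp, 34.5% to 40.6% at 875 bp and 73.0% to 79.2% at 1375 bp. Beyond 4 kb the level was lower again, 20.9% to 38.0% at 4625 bp upstream (16 CpGs) and 37.1% to 50.1% at 4375 bp downstream (17 CpGs). The profile pools all somatic genes, and single windows departed from it. Of the 46 tested somatic windows 37 were below 20% in all 4 libraries. The other 9 included Hist1h2be (58.8% to 60.6%), Hist1h2bc (53.8% to 55.7%) and Hist1h1d (33.4% to 39.5%), whose annotated bodies run far past the coding exon, and Hist1h2bh (29.5% to 34.8%).
At the edges of this valley KO minus WT varied from bin to bin. At 30 ppm it was 5.08 points at 875 bp upstream (48 CpGs) and 4.93 points at 875 bp downstream (72 CpGs), against 1.28 and 4.27 points at 3 ppm. In other upstream bins at 30 ppm it was 1.59 points at 625 bp, 5.80 points at 1125 bp, 1.46 points at 1375 bp and -3.41 points at 1625 bp. Downstream it was 1.28 points at 1125 bp and 6.15 points at 1375 bp. The difference in the valley floor, within 250 bp, was between -0.0066 and 0.60 points at either diet. These bins are a description of 1 library per group and were not tested.

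**Figure D2:**
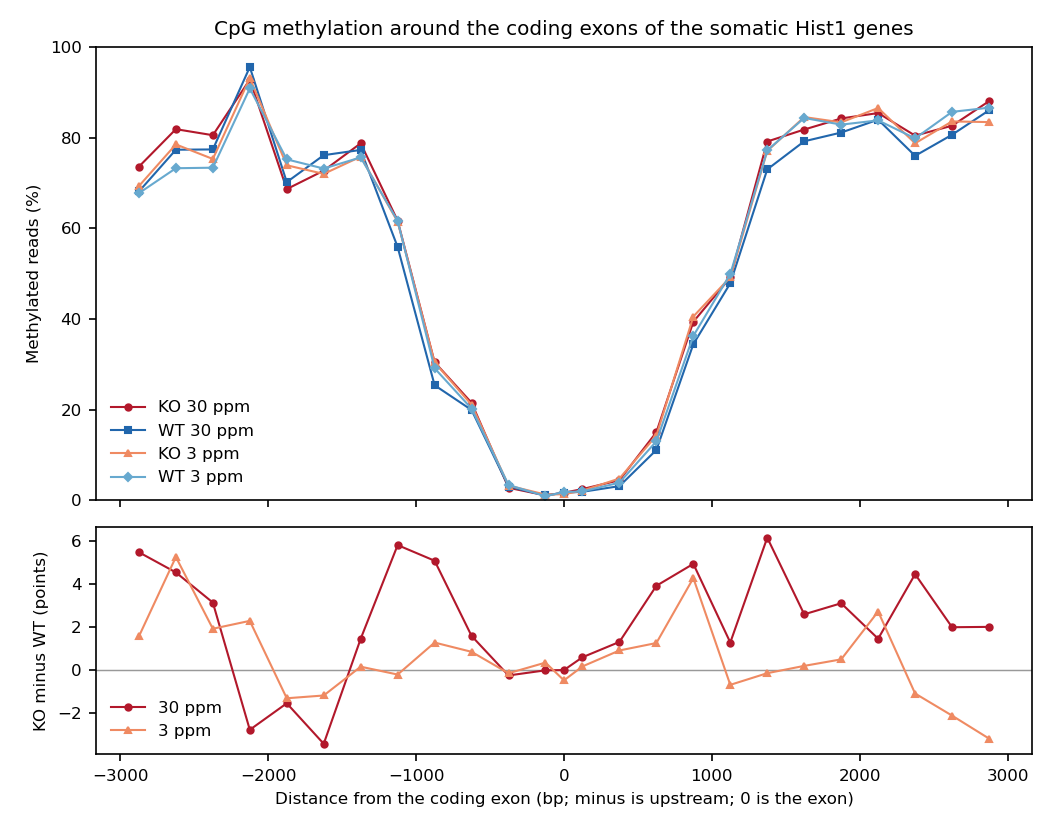
Upper panel, methylated reads (%) against distance from the nearest somatic Hist1 coding exon in 250 bp bins (minus is upstream, 0 is the exon itself), out to 3 kb, 1 line per library. Lower panel, KO minus WT in percentage points at 30 ppm and at 3 ppm. The 4 libraries follow 1 valley with a floor below 3% within 250 bp of the exon and a level above 70% at 1375 bp.

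Summed over the cluster, gene bodies were at 35.5% in KO30, 35.5% in WT30, 36.1% in KO3 and 36.0% in WT3 (1160 CpGs). The long annotated bodies of Hist1h2be (37455 bases), Hist1h2bc (8710 bases) and Hist1h1d (7425 bases) take part of the space between genes into this sum. The 1 kb flanks were at 20.6%, 18.3%, 20.1% and 20.1% (831 CpGs), and the space between windows at 67.4%, 65.8%, 66.4% and 66.0% (11590 CpGs). KO minus WT at 30 ppm was 2.39 points in the flanks (1.40 to 3.37) and 1.63 points between windows (1.32 to 1.94), and 0.013 points in the bodies (-1.09 to 1.11). As a mean of CpG levels the difference in the flanks was 1.18 points, and with 10 reads per CpG that in the bodies was 1.23 points. At 3 ppm the differences were 0.014 points in the flanks (-0.85 to 0.87), 0.42 points between windows (0.15 to 0.68) and 0.13 points in the bodies (-0.81 to 1.06). All autosomal reads, for comparison, were 83.1% methylated in KO30, 81.6% in WT30, 82.0% in KO3 and 81.5% in WT3.

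The first comparison asked how KO and WT differ at each diet. Fisher's exact test on summed reads was run in 49533 autosomal gene windows, and a window was called at an adjusted p below 0.05 (Benjamini-Hochberg over all windows) with a difference of at least 10 points. Of the 56 members 51 had the 3 measured CpGs needed, on 5 to 329 CpGs. The windows of 48 members overlap another member's window, so neighbours share CpGs. At 30 ppm 1 Hist1 window was called higher in KO, against 3.42% of all windows, and 0 lower, against 0.135%. At 3 ppm 1 was called higher, against 2.7% of all windows, and 0 lower, against 0.166%. None of the 46 tested somatic windows was called at either diet. Without the 10-point minimum, 7 members (13.7%) passed at 30 ppm, all higher in KO, against 27.6% of all windows higher and 0.719% lower. At 3 ppm 4 members were higher (7.84%, against 19.1%) and 4 were lower (7.84%, against 3.07%).

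The median difference of the 51 member windows was 1.16 points at 30 ppm, against 1.85 over all windows, and -0.035 points at 3 ppm, against 0.65. In 17 of 51 members (33.3%) KO was above WT at both diets, against 50.0% of all windows. Somatic windows ran from -7.63 to 6.16 points at 30 ppm and from -8.16 to 5.33 points at 3 ppm. Neighbouring windows share CpGs, and no share was tested against the background.

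**Figure D3:**
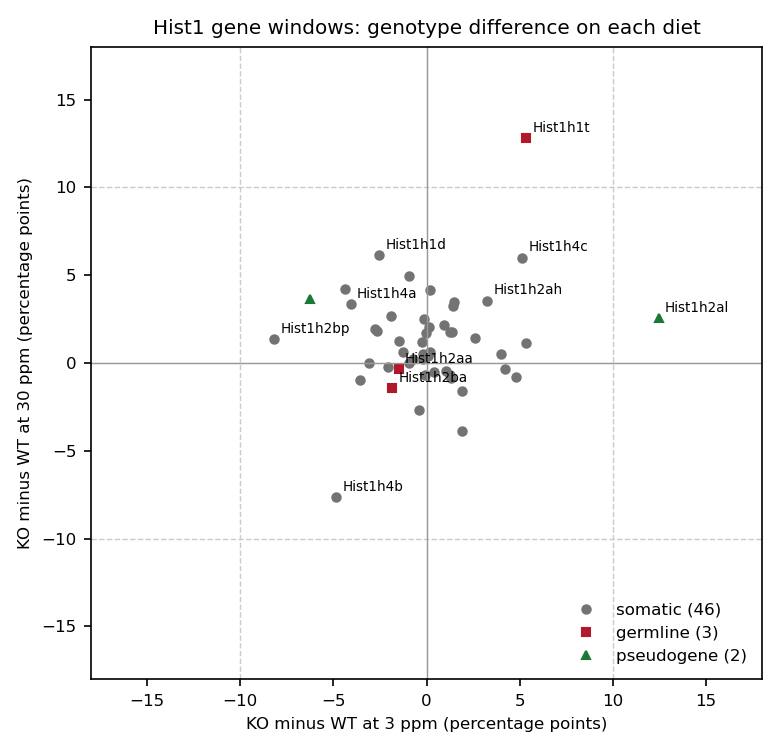
KO minus WT (percentage points) of each tested Hist1 gene window at 3 ppm (horizontal) and at 30 ppm (vertical). Dashed lines mark 10 points. Hist1h1t lies past 10 points at 30 ppm (12.8) and Hist1h2al at 3 ppm (12.5), and all 46 somatic windows lie within 10 points at both diets.

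The 2 called members were neither of them somatic genes. Hist1h1t, at chr13:23695814-23696725 on the plus strand, was at 66.97% in KO30, 54.1% in WT30, 63.9% in KO3 and 58.5% in WT3 over 29 CpGs and 433 to 681 reads. Both KO libraries were above both WT libraries. The difference was 12.8 points at 30 ppm (adjusted p = 0.00068, Fisher's exact test) and 5.36 points at 3 ppm, which missed the threshold (adjusted p = 0.198). The difference at 3 ppm was 10.4 points with reads thinned to the shallowest library (adjusted p = 0.0197), which would be a call, and 0.73 points with 2 kb flanks (adjusted p = 0.881). That the difference changed with diet was tested by a Wald test (adjusted p = 0.334), which passed, of the alternatives run, only with 2 kb flanks (10.4 points, adjusted p = 0.0124). Over the 15 CpGs of its body listed in all libraries, without a read minimum, the levels were 59.8%, 40.9%, 59.0% and 52.2% in the same order. With the coding exon plus 1 kb as the window, an alternative chosen after seeing the data, the difference at 30 ppm was 8.28 points, short of the 10-point minimum.

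Hist1h2al, at chr13:51202727-51203065 on the minus strand, was called at 3 ppm. Its window was at 88.4% in KO30, 85.8% in WT30, 89.2% in KO3 and 76.7% in WT3 over 20 CpGs and 233 to 389 reads. WT3 stood lowest. The difference was 12.5 points at 3 ppm (adjusted p = 0.0004, Fisher's exact test) and 2.56 points at 30 ppm (adjusted p = 0.631). Only 3 of the 39 CpGs of the gene body met the minimum of 5 reads in all libraries, and the call at 3 ppm depends on them. Without them the window was at 93.1%, 90.8%, 92.6% and 85.7% over 17 flank CpGs, a difference of 6.93 points at 3 ppm, short of the 10-point minimum. The call at 3 ppm was also lost with 10 reads per CpG (8.27 points, adjusted p = 0.0585), with thinned reads (7.67 points, adjusted p = 0.153) and with 2 kb flanks (3.67 points).
Over the 33 body CpGs listed in all 4 libraries the contrast was far larger. The level was 54.8% in KO30 (interval 49.5% to 60.0%, 341 reads), 6.54% in WT30 (3.20% to 12.9%, 107 reads), 59.1% in KO3 (54.7% to 63.4%, 489 reads) and 4.13% in WT3 (2.43% to 6.93%, 315 reads). KO minus WT was 48.3 points (30 ppm) and 55.0 points (3 ppm). No methylated read was found at 26 of the 33 CpGs in WT30 and at 25 in WT3, while each CpG was at 27.3% or more in both KO libraries. The flanks, on 18 such CpGs, were at 92.8%, 90.4%, 92.6% and 86.0%. The body sequence is the CpG-dense stretch printed above, and none of its 100-base stretches (0%) occurred in the Hist1 cluster or within 100 kb of it. Other histone loci and the rest of the genome were not searched, so the 0% cannot show that its reads map uniquely. Depth in WT30 was only 2 to 5 reads per CpG, against 12 to 18 in KO3, and whether the drop in reads had a part in the levels was not tested. A read is counted at each CpG it covers, so the sums above exceed the number of separate reads. The intervals and the adjusted p take these counts as independent and overstate the precision. With the gene body alone as the window, on the 3 CpGs that met the minimum, Hist1h2al was called higher in KO30 (44.2 points, adjusted p = 0.021) and at 3 ppm (63.7 points, adjusted p = 2.91e-07).

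**Figure D4:**
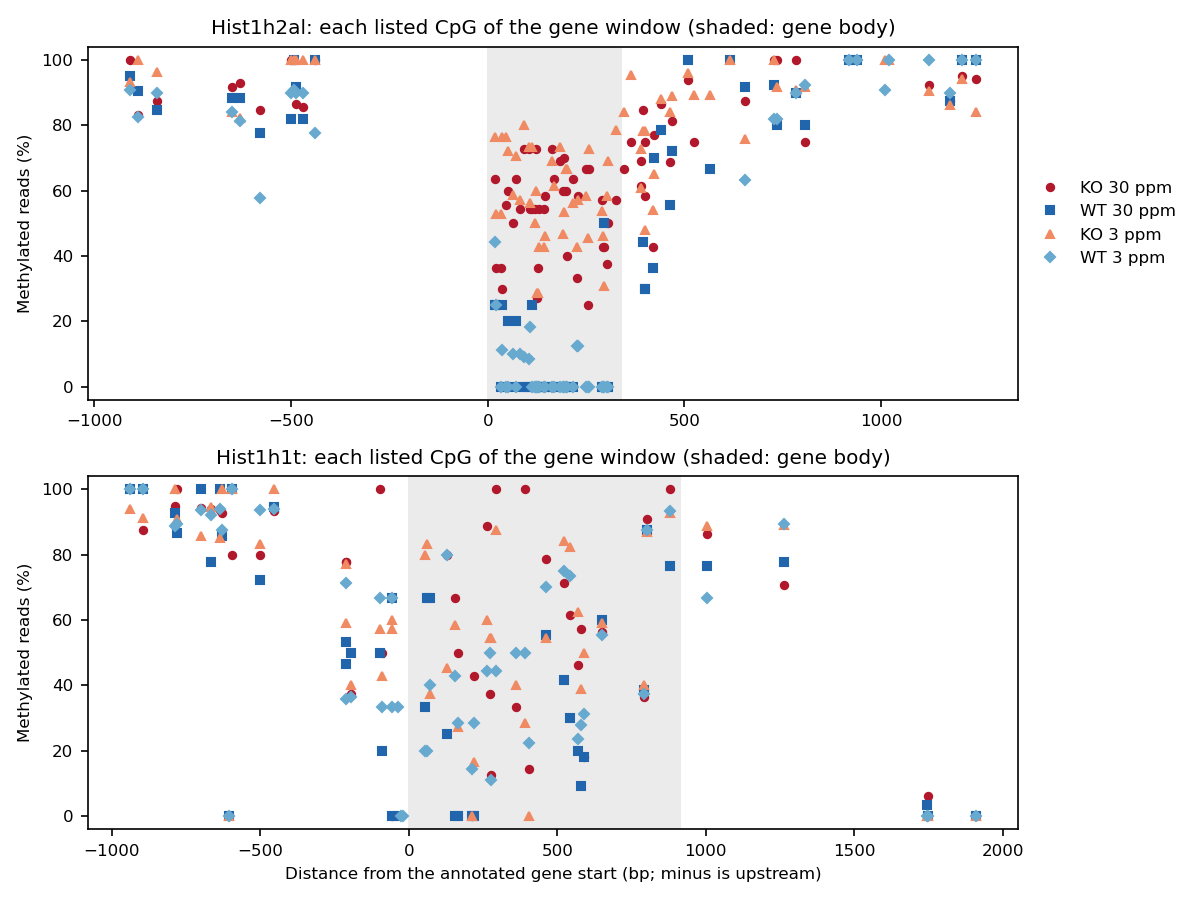
Methylated reads (%) at each listed CpG of the windows of Hist1h2al (upper) and Hist1h1t (lower) against distance from the annotated gene start, with the gene body shaded and 1 point per library. In the body of Hist1h2al most WT points lie at 0 and KO points lie at 25% or more, and its flanks are high in all libraries. In Hist1h1t the points of all libraries scatter over the whole range in the body.

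The germline genes Hist1h2aa and Hist1h2ba were high in all libraries. Hist1h2aa was at 91.6%, 92.0%, 89.5% and 91.0% over its window in KO30, WT30, KO3 and WT3, and Hist1h2ba at 90.8%, 92.3%, 89.8% and 91.7%. KO minus WT was -0.34 and -1.42 points at 30 ppm and -1.50 and -1.84 points at 3 ppm, all short of the threshold (adjusted p = 0.258 to 0.916). Their coding exons together were at 91.9%, 91.1%, 88.5% and 90.9%.

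Among somatic genes the largest differences averaged over the diets were in H4 genes. Hist1h4b was at 23.3% in KO30, 30.9% in WT30, 20.4% in KO3 and 25.3% in WT3, with differences of -7.63 points (adjusted p = 0.12) and -4.85 points (adjusted p = 0.256). Hist1h4c was at 20.04%, 14.0%, 18.5% and 13.4%, with differences of 6.00 points (adjusted p = 0.0228) and 5.14 points (adjusted p = 0.032). Their coding exons were at 0% to 3.03% and 0% to 1.40% in all libraries, so the window values come from flanking CpGs. The downstream flank of Hist1h4c lies within the window of the called Hist1h1t and shares its CpGs. Hist1h2ah, an H2A gene, was at 6.67%, 3.12%, 10.2% and 6.94%, with differences of 3.55 and 3.26 points that missed the threshold (adjusted p = 0.0883 and 0.214). All adjusted p in this paragraph are from Fisher's exact test, and none of these somatic windows reached 10 points.

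The second comparison asked whether the genotype difference depended on the diet. A Wald test of the difference between the log odds ratios passed for 3 members at an adjusted p below 0.05, 5.88% of the 51, against 8.19% of all windows. Hist1h4a was at 7.28% in KO30, 3.92% in WT30, 4.14% in KO3 and 8.22% in WT3, with KO minus WT of 3.36 points (30 ppm) and -4.07 points (3 ppm) (adjusted p = 0.00101, Wald test). Hist1h1d was at 39.5%, 33.4%, 33.8% and 36.4%, with 6.16 and -2.55 points (adjusted p = 0.00861). Hist1h2bp, an H2B gene, was at 18.1%, 16.7%, 17.6% and 25.8%, with 1.36 and -8.16 points (adjusted p = 0.0156). In all 3 windows KO30 was above WT30 and KO3 was below WT3. In Hist1h4a most methylated reads lay on 3 of the 66 CpGs, those at 25% or more in all 4 libraries, a split made after seeing the data. These CpGs held 35 methylated reads in KO30, 19 in WT30, 32 in KO3 and 44 in WT3. The other CpGs held 6, 10, 8 and 14 in the same order. The level of the 3 CpGs was 54.7% in KO30, 63.3% in WT30, 58.2% in KO3 and 69.8% in WT3, on 30 to 64 reads. It was lower in KO than in WT at both diets. They took 11.4%, 4.06%, 5.69% and 8.92% of the reads of the window in the same order, and the part of this uneven share in the window differences was not tested. The other 63 CpGs were at 1.20%, 1.41%, 0.88% and 2.18%. With 2 kb flanks only Hist1h2bp of the 3 still passed, since Hist1h1d fell to 2.65 points (adjusted p = 0.434) and Hist1h4a to 3.68 points (adjusted p = 0.271) in the difference of differences. With the minimum of 10 reads per CpG none of the 3 passed (adjusted p = 0.0826 to 0.324), while 5.59% of all windows did. The difference of differences was then 8.99 points in Hist1h2bp (38 CpGs), 5.72 points in Hist1h1d (62 CpGs) and 11.3 points in Hist1h4a (8 CpGs). With the coding exon plus 1 kb as the window, chosen after seeing the data, Hist1h4a alone passed.

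The third comparison set 30 ppm against 3 ppm within a genotype. No Hist1 window was called by Fisher's exact test in KO, against 0.309% of all windows in either direction, or in WT, against 0.359%. At an adjusted p alone, 1 member passed in KO (1.96%, against 5.13% of all windows) and 2 in WT (3.92%, against 5.27%). The median member difference was 0.21 points in KO, against 0.62 over all windows, and -0.74 points in WT, against -0.53.

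A fit in which the libraries give the spread, limma on log2 of methylated over unmethylated reads with 1 added to each, had 1 residual degree of freedom. Over both diets, 0 member windows passed for genotype at an adjusted p below 0.05, against 0.0% of all windows, and 0 passed for diet, against 0.0%. At an unadjusted p below 0.05, 9 members passed for genotype (17.6% of 51), 8 of them higher in KO, against 15.2% of all windows, and 4 for diet (7.84%), against 5.19%. These unadjusted counts moved with the window. Gene bodies alone gave 14 of 47 for genotype (against 13.8% of all bodies) and 12 of 47 for diet (against 5.42%). In a body with no methylated read, such as Hist1h2ab or Hist1h3g, the log2 value depends on depth alone, which differed between the libraries. The part of depth in these counts was not tested. On the fraction scale the windows gave 4 of 51 for genotype (against 17.5%) and 2 for diet (against 5.30%). At an adjusted p on that scale 0 members passed for genotype, while 292 of all 49533 windows did. In the log2 fit of the windows the lowest adjusted p of a member was 0.193 for genotype (Hist1h2ad, log2 difference 0.95 ± 0.17 SE) and 0.904 for diet. The window of Hist1h2ad was at 3.23% in KO30, 1.45% in WT30, 3.10% in KO3 and 1.76% in WT3. This log2 difference thus stands on levels near the mitochondrial background.

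Between the genes, 1413 tiles of 1 kb held at least 3 measured CpGs and overlapped no Hist1 window, 135 inside the subclusters and 1278 between them. At 30 ppm 12 tiles were called higher in KO (0.849%, against 1.13% of all tiles) and 0 lower. At 3 ppm 14 were called higher (0.991%, against 1.1%) and 1 lower (0.0708%, against 0.113%). With reads thinned to the shallowest library the calls at 3 ppm fell from 15 to 8 (0.566%, against 0.666% of all tiles). All of these tiles lay between the subclusters, as do 1278 of the 1413, and 0 of the 135 tiles inside the subclusters were called in any of the 4 pairs. At the shares of all tiles few calls would fall among 135 tiles, and the split by place was not tested. For diet, 2 tiles were called in KO, both lower at 30 ppm (0.142%, against 0.0683%), and 0 in WT (against 0.047%).

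The tiles called higher in KO were of low or intermediate level in the WT library of the diet of the call. The WT level of the 12 tiles at 30 ppm had a median of 21.8% (range 6.62% to 40.6%), against 85.1% over all tiles between the windows, and the differences ran from 11.8 to 31.0 points. At 3 ppm the median WT level of the 14 tiles was 29.7% (range 6.70% to 64.0%), against 85.9%, and the differences ran from 11.4 to 27.1 points. The 1 tile called lower in KO3, chr13:23289001-23290000, was at 95.2% in WT3. These WT values also enter the differences by which the tiles were called. Of the tiles, 5 were called higher in KO at both diets, 41.7% of the 12 and 35.7% of the 14. Over all autosomal tiles the shared calls were 32.4% of those at 30 ppm and 33.5% of those at 3 ppm. Of the 21 tiles called higher at either diet 17 had a positive difference at both (81.0%), against 86.4% over all tiles so called.
The lowest adjusted p at 3 ppm belonged to chr13:23395001-23396000, in no annotated gene, at 25.7% in KO30, 8.49% in WT30, 22.2% in KO3 and 7.13% in WT3. KO was above WT by 17.2 points (adjusted p = 2.89e-08, Fisher's exact test) and 15.1 points (adjusted p = 6.06e-11). The tile chr13:23416001-23417000, between genes and 7365 bp from the start of Abt1, was at 65.5%, 37.9%, 57.8% and 37.2%, with differences of 27.7 points (adjusted p = 1.07e-09) and 20.6 points (adjusted p = 1.77e-06). The tiles chr13:23501001-23502000 and chr13:23502001-23503000, shortly before the third subcluster, were the 2 called for diet in KO. The second was at 18.3%, 19.7%, 38.4% and 11.7%, so KO3 stood above the other libraries.

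**Figure D5:**
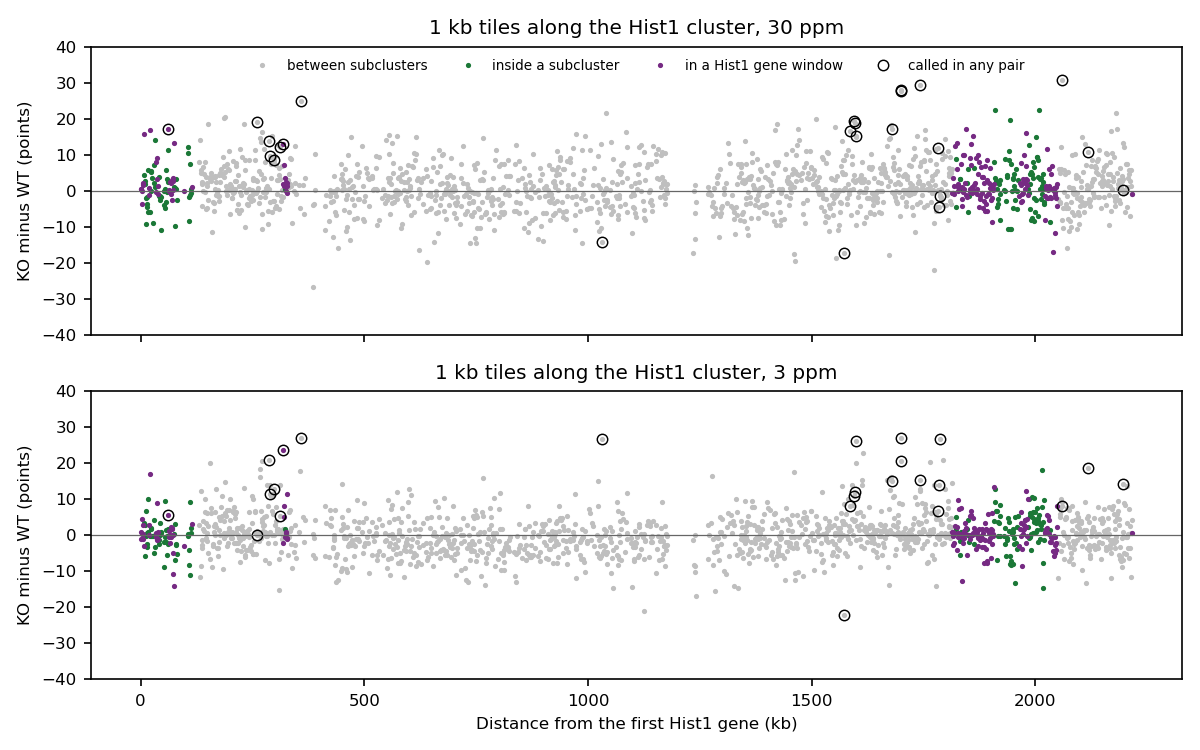
KO minus WT (percentage points) of each 1 kb tile from the first to the last gene of the cluster against distance from the first gene (kb), at 30 ppm (upper) and 3 ppm (lower). Colours give the place of the tile, and open circles mark tiles called in any of the 4 pairs. Called tiles lie between the subclusters or in a gene window. None is among the 135 tiles inside a subcluster outside the gene windows, where few calls would fall at the shares of all tiles.

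Of the 164 tiles that overlap Hist1 windows, 1 was called at each diet, both higher in KO (0.61%, against 1.13% and 1.1% of all tiles). The tile chr13:21778001-21779000, beside Hist1h1b, was at 53.3% in KO30 and 36.2% in WT30 (17.1 points, adjusted p = 0.0453, Fisher's exact test), and at 43.3% and 37.6% at 3 ppm. The tile chr13:22034001-22035000, beside Hist1h2ah, was at 45.8% in KO3 and 22.2% in WT3 (23.5 points, adjusted p = 0.0386), and at 23.4% and 10.3% at 30 ppm.

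Lists of related genes were read against the same shares of all windows, 3.42% higher in KO at 30 ppm, 2.7% at 3 ppm and 0.309% and 0.359% for diet. Of 14 tested replication-dependent histone genes outside Hist1, 0 were called in any pair, and their median window level was 12.6% to 15.4% over the libraries. Of 20 listed genes that act in histone gene transcription or histone mRNA processing, 19 were tested and 0 were called. Of 13 replication-independent histone genes 1 was called, H1fx, which encodes the linker histone H1.X, higher in KO3 (61.7% against 35.2%, 26.4 points, adjusted p = 0.000228, Fisher's exact test) and at 52.0% against 41.6% at 30 ppm (adjusted p = 0.328). The vomeronasal receptor genes and pseudogenes between the subclusters, 65 annotated entries, had a median window level of 84.6% to 86.0% and 0 calls in any pair. Over all 136 other genes tested in the span of the cluster, 1 was called at 30 ppm, 1 at 3 ppm, 1 for diet in KO and 0 for diet in WT. They were the pseudogene Gm11279 (11.3 points at 30 ppm, adjusted p = 0.0137, Fisher's exact test) and the rRNA entry Gm24991 (10.7 points at 3 ppm, adjusted p = 0.0195, and -13.5 points for diet in KO, adjusted p = 0.0244).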

How the data were processed

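The 4 libraries were trimmed by the authors with Trim Galore 0.6.10, aligned with Bismark 0.23.1 to GRCm38, deduplicated and merged over strands. The deposited tables give, per CpG, the fraction of methylated reads and the count of reads as the authors computed them, with no normalisation. Positions, which start at 0, were raised by 1. Methylated counts were fraction times count, rounded. CpGs with 5 or more reads in all 4 libraries were summed per gene window (GENCODE vM21), coding exon (the longest coding segment) and 1 kb tile. Two-sided Fisher's exact tests, Wald tests (0.5 added to each count) and limma 3.58.1 in R 4.3.3 were adjusted by Benjamini-Hochberg over all autosomal windows or tiles. The scripts were tested on simulated data. Members and lists were chosen with earlier results of these data known. Named were called members, the 6 largest mean KO minus WT differences, the highest and lowest body of each class, all H1 and germline members and called genes of the lists. Tiles named singly, Hist1h2bc, Hist1h2be, Hist1h2bh, Gm11279, Gm24991 and members named for missing reads, sequence or a lowest p were chosen after their values were seen. No result rests on the region lists that the authors deposited. Alternatives were read minimum, window, thinning to the shallowest library, high coverage, minimum difference, pseudocount and scale.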

Additional observations from a re-analysis of the deposited data

Results flagged for a closer look

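Of the 51 tested members 3 (5.88%) passed the Wald test on reads for a genotype difference that differs between the diets, a lower share than the 8.19% of all windows. KO minus WT at 30 ppm exceeded KO minus WT at 3 ppm by 7.43 points in Hist1h4a, 8.71 points in Hist1h1d and 9.52 points in Hist1h2bp. None of the 3 passed with 10 reads per CpG (adjusted p = 0.0826 to 0.324). There the excess was 8.99 points in Hist1h2bp, 5.72 points in Hist1h1d and, on 8 CpGs, 11.3 points in Hist1h4a. On the 3 CpGs that hold most methylated reads of Hist1h4a, KO was below WT at both diets (54.7% against 63.3%, and 58.2% against 69.8%), on 30 to 64 reads. With 1 library per group, the test compares libraries.

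In Hist1h2al, CpGs below the read minimum showed a signal outside the main measurement. Over the 33 body CpGs listed in all 4 libraries KO minus WT was 48.3 points (30 ppm) and 55.0 points (3 ppm). Only 3 of these CpGs entered the gene window test.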

How the results depend on the processing

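No paired analysis was possible because each group has 1 library. Counts of called members moved as follows. KO minus WT at 30 ppm, 1 called member (1.96%, against 3.56% of all windows), gave 2 with gene bodies alone (4.26%, against 3.96%). It gave 7 with no minimum difference (13.7%, against 27.6% higher and 0.719% lower). With the coding exon plus 1 kb, which was added after seeing the data, it gave 0 (against 3.56%). KO minus WT at 3 ppm, 1 called member (Hist1h2al, 1.96%, against 2.86%), gave 0 with 10 reads per CpG (against 2.23%). With 2 kb flanks it gave 0 (against 2.20%), and with no minimum difference 8 (15.7%, against 19.1% higher and 3.07% lower). With thinned reads the 1 called member (1.96%, against 2.98%) was Hist1h1t (10.4 points) in place of Hist1h2al (7.67 points). The diet pairs, 0 called, gave 1 in KO with no minimum difference (1.96%, against 5.13%). In WT they gave 1 with no read minimum (Hist1h2al, 1.92%, against 0.656%) and 1 with 2 kb flanks (Hist1h2aj, 1.89%, against 0.248%). With no minimum difference they gave 2 in WT (3.92%, against 5.27%). The test between the diets, 3 members, gave 0 with 10 reads (against 5.59% of all windows), 1 with bodies alone (2.13%, against 8.92%), 5 with 2 kb flanks (9.43%, against 8.90%; of the 3 only Hist1h2bp, and Hist1h1t among those added), 1 with the coding exon plus 1 kb (1.96%, against 8.18%) and 0 with a minimum of 10 points (against 1.17%). With no read minimum the test between the diets gave 4 of 52 members (7.69%, against 9.97%). The added member was Hist1h2al, with the opposite sign (-27.1 points, adjusted p = 2.05e-07, Wald test). Tiles higher or lower at 3 ppm fell from 15 to 8 with thinned reads (0.566%, against 0.666% of all tiles). For Hist1h2al with no read minimum the difference between the WT libraries is 23.8 points, and its body there had 107 reads in WT at 30 ppm against 315 in WT at 3 ppm, which shifts the window sum towards the flanks. The limma counts at an adjusted p were 0 for members under each alternative. Over all windows, 292 of 49533 passed for genotype on the fraction scale and 20 of 50034 with 2 kb flanks. At such shares few or no calls would fall among the members. The counts at an unadjusted p, 9 for genotype and 4 for diet, were 14 and 12 of 47 with gene bodies alone (against 13.8% and 5.42% of all). On the fraction scale they were 4 and 2 of 51 (against 17.5% and 5.30%). In bodies with no methylated read the log2 value depends on depth alone.

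Mean levels over the libraries moved with the CpGs that enter. Gene bodies went from 35.8% to 45.7% with 10 reads, 31.9% with no minimum and 29.2% as a mean of CpG levels, and flanks from 19.8% to 21.9%, 19.4% and 17.7% and to 33.8% with 2 kb. The space between windows went from 66.4% to 66.7%, 66.2% and 66.6%, to 67.1% without CpGs of very high coverage and to 66.2% with 2 kb flanks. KO minus WT at 30 ppm moved to 1.23 points in bodies with 10 reads and to 1.18 points in flanks as a mean of CpG levels. Of 287 recomputed differences of named members, 0 called ones changed sign and 25 uncalled ones did. In somatic coding exons 23.3% of CpGs were measured, and the parts of depth and of recurring sequence in this were not tested.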
